A study of Mus musculus with 21 samples.

Results

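Il21, the antisense gene Gm12534 that ends within its first exon, the receptor gene Il21r and 5 genes of the follicular helper programme (Bcl6, Cxcr5, Tox, Tox2 and Sh2d1a) were followed through 2 antigen doses and 3 times in mouse CD4+ T cells. The 8 genes were taken by name, and all 8 were among the 15300 genes with at least 10 reads, out of 47643 genes in the count table. The choice was made with earlier results of these libraries known, and Il21 and Gm12534 were chosen by their counts in these libraries, in which they were among the genes that differed most between doses. Their levels, their ratio and their dose difference are therefore given as a description without a test. Tests are given for the other 6, and for neighbouring and pathway genes that are set beside them.

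RNA from 21 mice of the strain Tg4 Tiger Nr4a3-Tocky was measured by 3′ mRNA sequencing, 1 library per mouse and 3 mice in each of 7 groups. All mice carried the Tg4 T cell receptor transgene, which recognises a peptide of myelin basic protein (MBP), the Tiger Il10-GFP reporter, and Nr4a3-Tocky, a Timer protein that follows Nr4a3 activity and matures from a blue to a red form. The control mice were untreated, and the others were injected under the skin with the 4Y MBP peptide, at a low dose of 0.8 µg or a high dose of 80 µg and without adjuvant, and were analysed after 4, 12 or 24 h. CD4+ T cells of the spleen were gated on Timer blue alone 4 h after injection, on blue with red after 12 h, and on red alone after 24 h, so time and sort gate cannot be told apart, whereas the doses at each time shared a gate. The gate of the control cells and the age of the mice are not given in the sources used here. The cells share 1 receptor specificity, and mice of both sexes were used. Libraries held 2352800 to 6244279 counts. All 10 CD4+ T cell marker genes were detected in every group, with summed levels of 1851 to 4365 CPM (counts scaled to a library total of 1000000). Summed markers of other cells ranged over the groups from 13.1 to 51.3 CPM for CD8+ T cells, 0 to 5.02 for NK cells, 1.85 to 31.2 for myeloid cells and 5.31 to 212 for red cells. Regulatory T cell markers, which activated T cells share in part, ranged from 56.4 CPM in control to 1301 CPM with 80 µg at 4 h. Most of the latter was Il2ra, at 1106 to 1164 CPM against 7.63 to 22.8 in control, and Ctla4 had 66.2 to 113 against 2.14 to 9.35 CPM. Foxp3 had 3.85 to 5.77 CPM with 80 µg at 4 h, 4.27 to 16.9 in control and at most 55.3, with 0.8 µg at 24 h. Ikzf2 had 19.7 to 27.2 CPM with 80 µg at 4 h, 42.4 to 83.4 in control and 302 to 541 with 0.8 µg at 24 h.

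IL-21 is a cytokine of activated CD4+ T cells, best known from follicular helper T cells, which enter B cell follicles and help B cells make antibody. It binds a receptor made of the Il21r product and the common gamma chain, and signals through JAK1, JAK3 and STAT3. Bcl6 is the transcriptional repressor that follicular helper cells require, CXCR5 is the chemokine receptor that guides them to the follicle, and SAP, the product of Sh2d1a, is the adaptor of the SLAM receptors through which they hold on to B cells. Tox and Tox2 encode related HMG-box nuclear proteins of developing and activated T cells.

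Il21 lies on chromosome 3 at 37222759 to 37232636 on the minus strand (GRCm38). Gm12534 lies at 37231333 to 37232469 on the plus strand and is annotated as an antisense gene of 2 exons, with 434 and 35 bases. It is transcribed towards the Il21 start, and its last exon, at 37232435 to 37232469, falls within the first exon of Il21, where all 35 bases are Il21 coding sequence. These bases are shown on both strands because they are where the end of the antisense transcript, the part that a 3′ library reads, meets the Il21 message; in Il21 they begin at base 150 of a transcript of 3072 bases that starts at 37232618, the start from which distances to neighbouring genes are given.
Gm12534 exon 2, plus strand, chr3:37232435-37232469: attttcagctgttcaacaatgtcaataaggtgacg
Il21 exon 1, minus strand, the same bases: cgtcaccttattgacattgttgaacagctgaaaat

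The annotated 3′ end of Il21 is 8574 bases away from the nearest base of Gm12534, so reads from the usual Il21 3′ end and reads from Gm12534 fall in separate places. The annotation also holds an Il21 transcript made of a single exon, at 37230302 to 37232636, which covers Gm12534 entirely. Whether the counting used strand, and which annotation release it used, is not stated in the sources used here. Without strand, reads from Gm12534 and from that Il21 transcript could not be told apart.

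**Figure D1:**
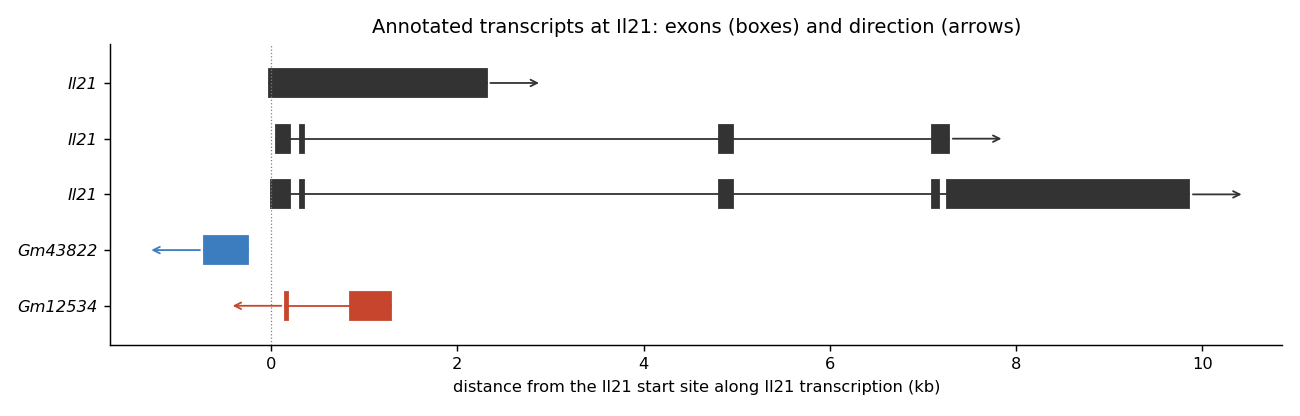
Annotated transcripts at Il21 (GENCODE vM21), plotted by distance in kb from the start of the 3072-base Il21 transcript along the direction of Il21 transcription, with exons as boxes and arrows for direction. Gm12534 and Gm43822 run opposite to Il21, and Gm12534 ends inside the first Il21 exon.

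The 250 bases before the annotated Il21 start (RefSeq, GRCm38.p6) are shown because Il21 starts right after them and Gm43822, described below with the neighbouring genes, starts within them on the other strand. GGAAA, the core of the motif bound by NFAT factors, is in capitals where it was found on either strand (TTTCC on the strand shown).
Il21 upstream, minus strand, chr3:37232637-37232886: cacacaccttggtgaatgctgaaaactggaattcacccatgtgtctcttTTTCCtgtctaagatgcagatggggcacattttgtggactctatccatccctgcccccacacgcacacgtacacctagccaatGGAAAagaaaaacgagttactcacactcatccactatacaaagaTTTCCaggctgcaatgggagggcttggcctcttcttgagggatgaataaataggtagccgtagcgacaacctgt
It was found 3 times, with the match beginning at -201, -118 and -74 from the start. GGAAA was present in 61.5% of 32544 promoter windows of 300 bases, and 9.44% held it at least 3 times. TGANTCA, the AP-1 motif, and TTCNNNGAA, the STAT motif, were not found in the 300-base Il21 window, and were present in 7.79% and 8.33% of windows. The matches are letters in a sequence and do not show binding.

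Il21 was near background in control and 0.8 µg libraries and was high in all 80 µg libraries at 4 and 12 h. The 3 control mice had 1, 2 and 0 counts. With 0.8 µg there were 1, 1 and 0 counts at 4 h, 5, 3 and 0 at 12 h, and 1, 0 and 1 at 24 h. With 80 µg there were 197, 95 and 162 counts at 4 h, 218, 339 and 170 at 12 h, and 16, 21 and 50 at 24 h. Every 80 µg library was thus above every library of the other 4 groups. After division by library size factors, the 80 µg groups had 153 ± 69.1, 204 ± 42.0 and 21.3 ± 8.33 normalised counts (mean ± SD, n = 3) at the 3 times in turn. The 4 h and 12 h ranges overlapped, and both lay above the range at 24 h.

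With the floor set at 3 counts per library, the high dose exceeded the low dose in Il21 by at least 44.9-fold at 4 h and at least 7.24-fold at 24 h. At 12 h the ratio of the mean normalised counts was 85.7, resting on 8 counts in the 0.8 µg group, and it was 57.1 without the 0.8 µg replicate that had 0 counts. Over the untreated mice the same floor gave at least 44.1-fold, 58.9-fold and 6.12-fold. These libraries come from bulk sorted cells, in which more cells expressing a gene and more RNA per cell cannot be told apart.

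Gm12534 was counted only in 80 µg libraries. All 12 control and 0.8 µg libraries were at 0 counts, so it passed the read filter through the 80 µg libraries alone. With 80 µg there were 144, 133 and 169 counts at 4 h, 79, 149 and 79 at 12 h, and 2, 5 and 1 at 24 h. The groups at 4, 12 and 24 h did not overlap, with 147 ± 19.0, 86.1 ± 20.2 and 2.16 ± 1.53 normalised counts. Against 0.8 µg this was at least 43.1-fold higher at 4 h and at least 29.6-fold higher at 12 h. The counts at 24 h were too close to the floor for a fold.

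Il21 and Gm12534 had different courses over time. Il21 had its highest mean at 12 h and Gm12534 at 4 h. Gm12534 made up 42.2%, 58.3% and 51.1% of the summed counts of both genes in the 3 mice at 4 h, 26.6%, 30.5% and 31.7% at 12 h, and 11.1%, 19.2% and 1.961% at 24 h. All 3 mice at 4 h were above all 3 at 12 h, and these above all 3 at 24 h. The mean share was 50.5 ± 8.06% at 4 h, 29.6 ± 2.68% at 12 h and 10.8 ± 8.64% at 24 h (SD, n = 3). The drop from 4 to 12 h was 20.9 percentage points. The shares are a description, since both genes were chosen by these counts, and an exact permutation test of 3 mice against 3 cannot go below p = 0.1. At 24 h the pair had 18 to 51 counts per library, and the exact 95% interval of the share (Clopper-Pearson, counting error only) ran from 1.38% to 34.7% in the library with 18. The share compares the same pair of genes between times and does not rank their levels.

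**Figure D2:**
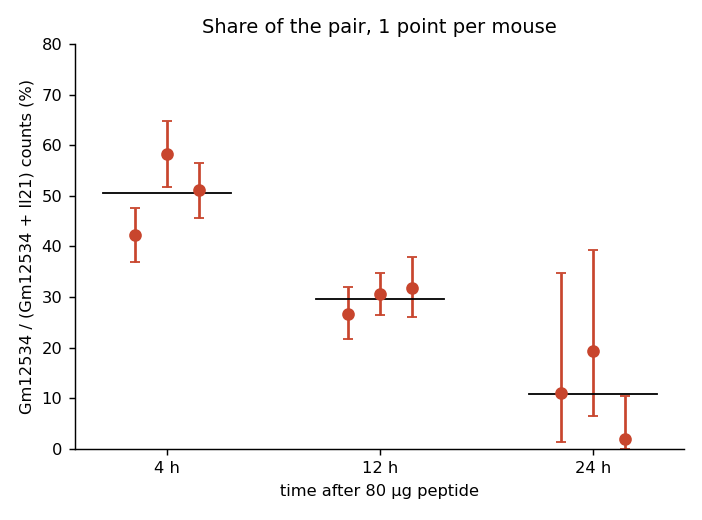
Gm12534 counts as a percentage of Gm12534 plus Il21 counts after 80 µg peptide, 1 point per mouse with its exact 95% interval and a line at the mean of 3 mice. The means fall from 50.5% at 4 h to 10.8% at 24 h.

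Of the 32 other annotated genes with an exon within 500 kb of Il21, 17 passed the read filter, Gm12534 among them. Gm12534 and Gm43822 were at 0 counts in all control and 0.8 µg libraries, passed the filter through the 80 µg libraries alone and are given without a test. Of the remaining 15, 3 were called higher with 80 µg than with 0.8 µg and 0 lower at 4 h, where 10 of them were tested. A gene was called at an adjusted p below 0.05 (DESeq2 Wald test, Benjamini-Hochberg over all genes tested) together with a shrunken log2 fold change beyond 1 in size. At 12 h 1 of 10 tested was called higher, and at 24 h 0 of 8. Over all genes tested, 5.85% were called in either direction at 4 h, 2.79% at 12 h and 1.56% at 24 h, and with so few neighbours the counts are not read as different from these shares. Gm43822, a gene model of unknown function on the plus strand, begins upstream of Il21, and its first 20 bases lie at the far end of the sequence shown above. It had 59, 59 and 41 counts with 80 µg at 4 h, 15, 11 and 12 at 12 h, and 0, 0 and 5 at 24 h. Against 0.8 µg it was at least 15.7-fold higher at 4 h and at least 3.83-fold higher at 12 h. Its highest group was thus 4 h, as for Gm12534.

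Il2, the growth factor gene next to Il21, starts 107 kb downstream of it. It had 2016, 1322 and 1203 normalised counts with 80 µg at 4 h against 169, 191 and 106 with 0.8 µg (log2 difference 3.21 ± 0.33 SE, adjusted p = 1.07e-19). At 12 h the means were 75.0 and 18.2 (1.97 ± 0.38, adjusted p = 1.68e-05), and at 24 h 5.43 and 6.00 (adjusted p = 0.927). Il2 thus had counts in every 0.8 µg library at 4 h, where Il21 had at most 1. Cetn4, 80.1 kb upstream, had 23, 15 and 14 counts with 80 µg at 4 h and 0 in the 3 libraries with 0.8 µg. It was thus at least 5.20-fold higher (adjusted p = 1.73e-04). Cetn4 means stayed higher with 80 µg at 12 h (14.0 against 2.40 normalised counts) and 24 h (16.7 against 2.51). The doses did not overlap at these times, but Cetn4 was not called. Spry1, a feedback inhibitor of receptor tyrosine kinase signalling 407 kb upstream, had 425 against 193 normalised counts at 4 h (1.13 ± 0.26, adjusted p = 2.25e-04). The long protein-coding gene 4932438A13Rik, 370 kb downstream, had 797 against 398 at 4 h. The log2 difference of 0.996 was just under the fold threshold (adjusted p = 5.71e-12). Both doses were far below the 1668 ± 94.0 normalised counts of control mice. Bbs12, Nudt6 and Spata5, which lie between Il21 and Spry1, were not called between doses at any time.

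**Figure D3:**
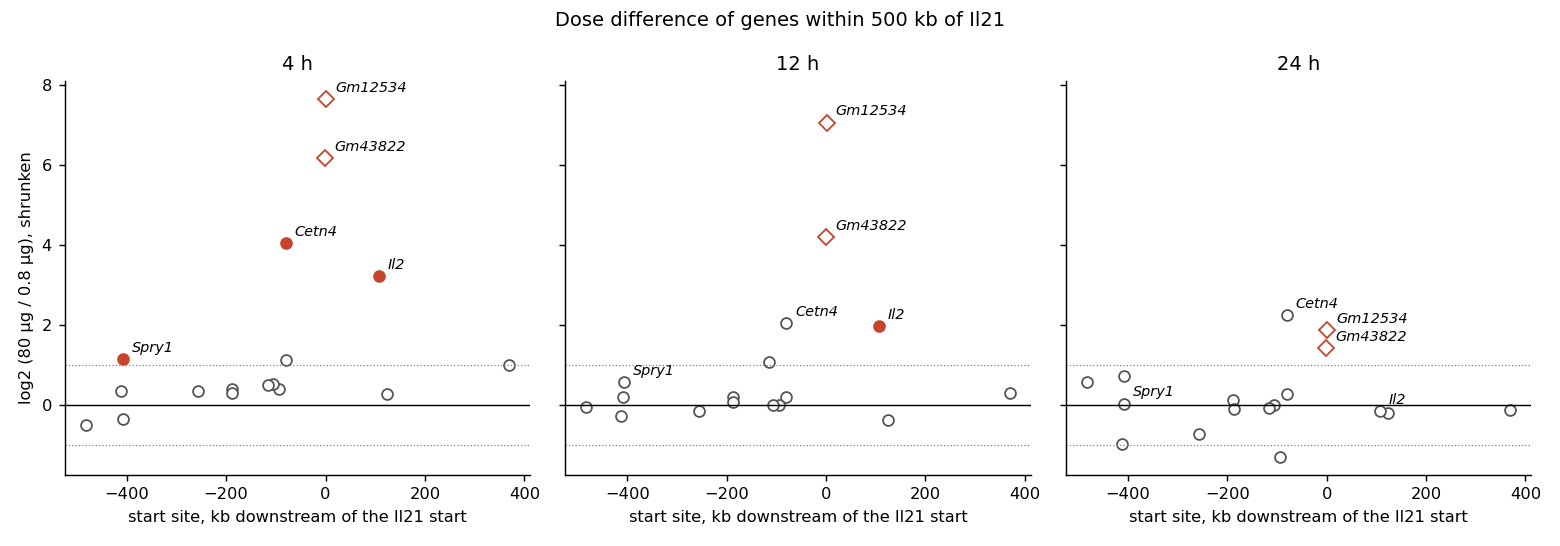
Shrunken log2 difference between 80 µg and 0.8 µg of the genes within 500 kb of Il21 that passed the read filter, at each time, against the position of their start in kb along Il21 transcription. Filled circles were called, and diamonds are Gm12534 and Gm43822, which are given without a test; values of genes at 0 counts with 0.8 µg depend on the shrinkage, and Gm12534 and Gm43822 are the highest points at 4 and 12 h.

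Il21r was expressed in every library, was highest at 4 h with either dose, and was not called in any dose comparison. With 80 µg at 4 h the mice had 642, 625 and 827 normalised counts, with 0.8 µg 612, 503 and 576, and without treatment 408, 325 and 471. These 3 groups did not overlap. Over control, the log2 fold change at 4 h was 0.80 ± 0.15 SE with 80 µg (adjusted p = 3.52e-07) and 0.49 ± 0.15 with 0.8 µg (adjusted p = 0.00267), both under the fold threshold. Between doses, the fold at 4 h was 1.24 (95% interval 1.01 to 1.52, adjusted p = 0.195), at 12 h 0.969 (0.788 to 1.19, adjusted p = 0.936) and at 24 h 1.30 (1.06 to 1.60, adjusted p = 0.136). At 24 h the doses did not overlap, with 300.5 ± 19.4 normalised counts after 0.8 µg and 391 ± 31.4 after 80 µg, and the 0.8 µg group was below control (log2 -0.41, adjusted p = 0.0247), which was under the fold threshold and had an adjusted p of up to 0.190 (without control replicate 3) when 1 library was left out. The receptor gene therefore differed between doses by at most 1.60-fold within its 95% intervals.

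Of 10 genes of signalling from the IL-21 receptor, 3 were called higher with 80 µg than with 0.8 µg at 4 h, 2 at 12 h and 2 at 24 h, and 0 lower, beside the 5.85%, 2.79% and 1.56% of all genes given above. The median log2 dose difference of the list was 0.38 at 4 h, -0.13 at 12 h and 0.16 at 24 h, beside -0.02, 0.01 and 0.02 over all genes tested. Socs3, an inhibitor of STAT3 signalling, had 344 ± 101 against 17.2 ± 6.46 normalised counts at 4 h (log2 4.06, adjusted p = 3.82e-16). Its control level was 230 ± 12.0, so the low dose was far below untreated cells. Socs1, an inhibitor of JAK kinases, had 856 ± 107 against 159 ± 87.5 at 4 h (2.35, adjusted p = 2.64e-08) and 73.8 ± 10.2 in control mice. Prdm1, which encodes the repressor Blimp-1, had 99.0 ± 23.8 against 9.63 ± 6.26 at 12 h (3.20, adjusted p = 3.42e-11) and 42.8 ± 18.9 in control mice. Il2rg, Jak1, Jak3, Stat3, Stat5a and Stat5b were among those not called between doses at any time, which includes differences under the fold threshold. Stat3 had 3478 ± 395 against 1809 ± 425 normalised counts at 4 h (log2 0.94, adjusted p = 5.89e-09) and 943 ± 47.8 against 1592 ± 350 at 12 h (-0.75, adjusted p = 2.28e-05). Il2rg, the common gamma chain gene, had 1020 ± 55.2 against 1708 ± 127 at 4 h (-0.74, adjusted p = 2.86e-10).

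Of 9 transcription factor genes known to act on Il21, 6 were called higher at 4 h, among them Maf, Irf4, Batf, Stat4 and Rora, 4 at 12 h and 1 at 24 h, and 0 lower, between doses, against 5.85%, 2.79% and 1.56% of all genes. The median log2 difference was 1.58, 0.72 and 0.21 at the 3 times. Against control at 4 h, 7 of the 9 were called higher and 2 lower with 80 µg, and 4 higher and 3 lower with 0.8 µg, where 43.5% and 40.7% of all genes tested were called in either direction. Maf, an activator of Il21, had 476 ± 74.3 against 37.2 ± 19.2 normalised counts at 4 h (log2 3.56, adjusted p = 2.06e-21), and 177 ± 58.5 in control mice. Rora, an orphan nuclear receptor gene, had 1541 ± 129 against 111 ± 60.9 (3.55, adjusted p = 1.01e-10), and 149 ± 34.0 in control mice. Stat4, a signal transducer of IL-12, had 49.2 ± 3.54 against 5.24 ± 4.46 (2.87, adjusted p = 1.08e-11), both far below the 196 ± 32.7 of control mice. Nfatc1, Nfatc2 and Stat3 were not called between doses at any time. These lists were drawn up with earlier results known, so their counts are a description.

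**Figure D4:**
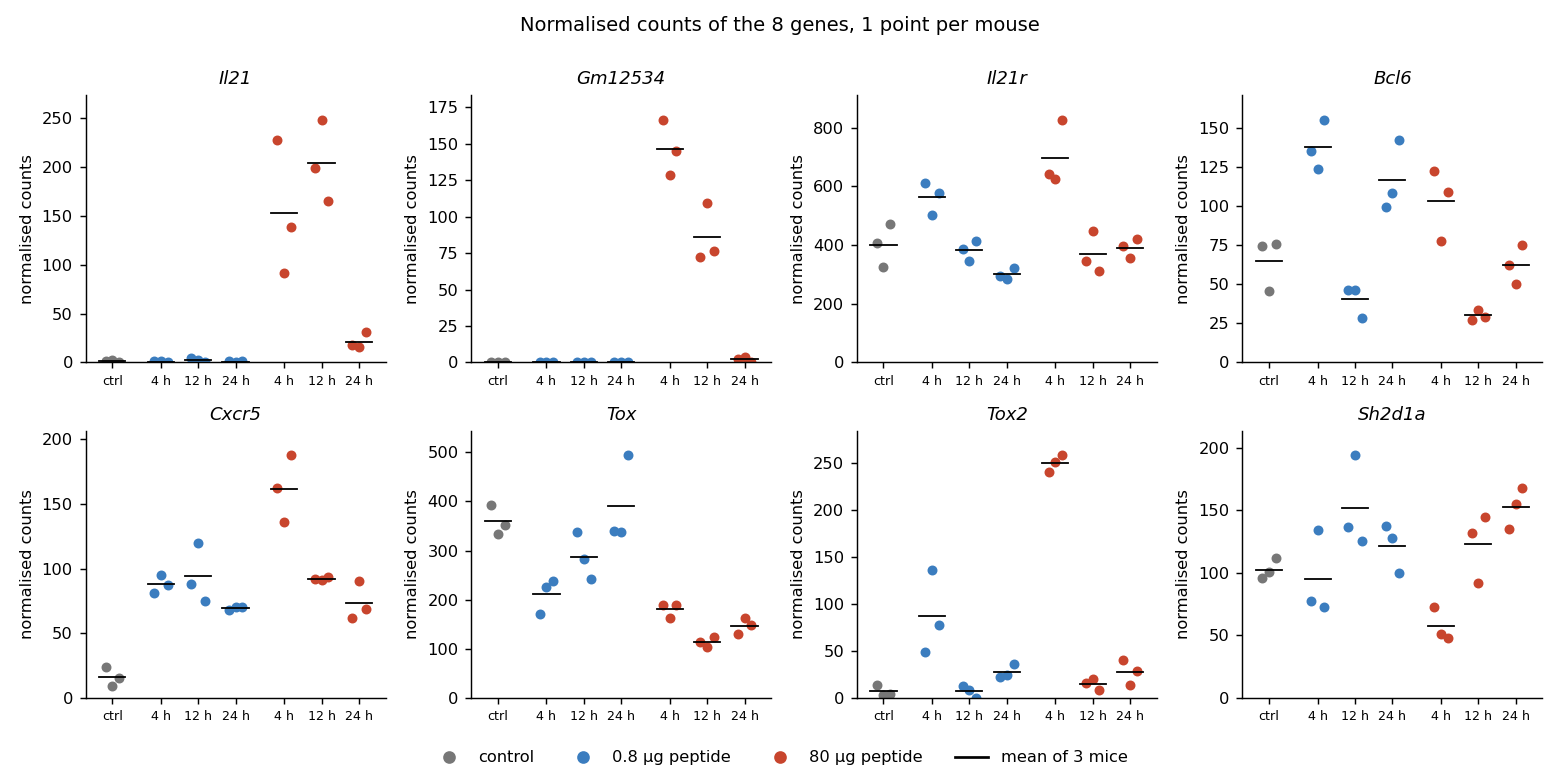
Normalised counts of the 8 genes, 1 panel per gene with its own axis from 0, 1 point per mouse and a line at the mean of 3 mice, for control, 0.8 µg and 80 µg at 4, 12 and 24 h. Il21 and Gm12534 have counts well above 0 only with 80 µg, Tox is lowest with 80 µg at 12 h, Tox2 is highest at 4 h and Bcl6 is lowest at 12 h.

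Of the 6 tested genes, 1 was called between doses at 4 h (Tox2, higher), 1 at 12 h (Tox, lower) and 1 at 24 h (Tox, lower). Among all genes tested, 5.85% were called at 4 h, 2.79% at 12 h and 1.56% at 24 h. Against control, 3 of 6 were called after 0.8 µg at 4 h (background 40.7%), 1 at 12 h (37.7%) and 2 at 24 h (17.3%). After 80 µg, 2 of 6 were called at 4 h (43.5%), 3 at 12 h (37.9%) and 3 at 24 h (20.2%). With 6 genes, these counts are not read as different from the background. The 6 comparisons with control share the same 3 control mice.

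Bcl6 was called higher than control at 4 h after the low dose and lower than control at 12 h after the high dose. The control mice had 74.2, 45.6 and 75.7 normalised counts. After 0.8 µg there were 135, 124 and 155 at 4 h, 46.1, 46.6 and 28.2 at 12 h, and 99.3, 108 and 142 at 24 h. After 80 µg there were 122.7, 77.5 and 109 at 4 h, 27.4, 33.7 and 29.2 at 12 h, and 62.5, 50.04 and 75.2 at 24 h. Both doses were thus at their lowest at 12 h. Bcl6 rose over control after 0.8 µg at 4 h (log2 1.08 ± 0.26 SE, adjusted p = 7.56e-05) and fell after 80 µg at 12 h (-1.07 ± 0.28, adjusted p = 3.51e-04), and both calls lie close to the fold threshold. It was also above the control range, under the fold threshold, after 80 µg at 4 h (0.66, adjusted p = 0.0205). The same held after 0.8 µg at 24 h (0.83, adjusted p = 0.00456). Leaving out 1 library took these adjusted p up to 0.164 and 0.0642. After 0.8 µg at 12 h Bcl6 was below control with overlapping ranges (-0.65, adjusted p = 0.0340, up to 0.172), also under the fold threshold. The call after 0.8 µg at 4 h went below it without control replicate 2 (0.87) or 0.8 µg replicate 3 (0.99), and the call after 80 µg at 12 h in edgeR (-0.99), with only the 6 samples compared (-0.99) and without control replicate 1 (-0.97), control replicate 3 (-0.97) or 80 µg replicate 1 (-0.998).

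Bcl6 means were lower with 80 µg than with 0.8 µg at every time, and the mice did not overlap at 4 and 24 h. At 24 h the log2 difference was -0.88 ± 0.25 (adjusted p = 0.0123), short of the fold threshold. It went past the threshold without 80 µg replicate 3 (-1.04), and its adjusted p was above 0.05 without 0.8 µg replicate 3 (-0.71, adjusted p = 0.129) or 80 µg replicate 2 (-0.74, adjusted p = 0.108). The fold at 4 h was 0.743 (95% interval 0.530 to 1.04, adjusted p = 0.322) and at 12 h 0.741 (0.498 to 1.10, adjusted p = 0.505). Thus only at 24 h did the interval leave out equal levels, with a fold of 0.538 (0.382 to 0.760). In Bcl6 and Gm37419, which lies on the opposite strand, exons share up to 21 bases.

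Of 13 regulators of follicular helper differentiation other than the 8 genes, 12 passed the read filter. At 4 h 11 were tested, with 5 called higher and 3 lower between doses (5.85% of all genes in either direction). At 12 h 3 were higher and 0 lower (2.79%), and at 24 h 1 was higher and 1 lower (1.56%). The higher genes at 4 h were Maf, Batf, Irf4, Egr2 and Il6st. Maf, Batf and Irf4 were also counted above among the transcription factor genes known to act on Il21. The lower ones were Tcf7 and Lef1, whose products act early in follicular helper differentiation, and Id3, an inhibitor of E proteins. Id3 had 46.9 ± 5.59 against 204 ± 18.9 normalised counts (log2 -2.07, adjusted p = 1.85e-11), and 127 ± 22.7 in control mice. Egr2, which encodes a zinc-finger factor induced by receptor signals, was higher at 4 and 12 h and lower at 24 h (3.11 ± 2.03 against 16.2 ± 8.38, log2 -2.03, adjusted p = 0.00132). The list's median was 0.94, 0.48 and 0.20 at the 3 times.

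Of 13 genes that oppose the programme or mark its absence, 6 were called higher with 80 µg than with 0.8 µg at 4 h, 2 at 12 h and 2 at 24 h, and 0 lower (5.85%, 2.79% and 1.56% of all genes). Against control at 4 h, 6 were called lower and 4 higher after 80 µg (43.5% of all genes in either direction) and 8 lower and 3 higher after 0.8 µg (40.7%). Their median log2 difference was 1.05, 0.35 and 0.41. Prdm1, whose product and Bcl6 repress each other's genes, was called higher with 80 µg than with 0.8 µg at all 3 times. Its means were 26.0 against 2.57 normalised counts at 4 h, 99.0 against 9.63 at 12 h and 43.1 against 16.2 at 24 h. Control mice had 42.8 ± 18.9, which is above the 80 µg mean at 4 h and close to that at 24 h. A link to the Bcl6 values above was not tested. Id2, which also encodes an inhibitor of E proteins, had 1014 ± 108 against 209 ± 25.1 at 4 h (log2 2.27, adjusted p = 1.92e-41), and 425 ± 15.5 in control mice. Il7r, the interleukin-7 receptor gene, had 64.5 ± 11.4 against 14.5 ± 3.44 (2.04, adjusted p = 1.43e-07), both far below the 2627 ± 594 of control mice. Of a separate list of 4 genes for Bcl6 corepressors and relatives, 3 were tested, and 1 was called between doses at 4 h and 0 later. It was Bcor, which encodes a corepressor of Bcl6 and was lower with 80 µg (317 ± 30.9 against 742 ± 40.2, log2 -1.22, adjusted p = 6.29e-11), and had 245 ± 34.8 in control mice.

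Cxcr5 was called higher than control in all 6 immunised groups. The control mice had 23, 9 and 11 counts, or 23.7, 9.13 and 15.7 normalised counts. With 80 µg at 4 h the mice had 162, 136 and 188 normalised counts and with 0.8 µg 80.8, 94.8 and 87.4. The remaining groups had means of 94.3 ± 22.8 (0.8 µg, 12 h), 69.4 ± 1.12 (0.8 µg, 24 h), 92.2 ± 1.17 (80 µg, 12 h) and 73.6 ± 15.1 (80 µg, 24 h). No immunised mouse overlapped the control mice. The fold over control was highest with 80 µg at 4 h (log2 3.24 ± 0.29 SE, adjusted p = 3.48e-27) and was 2.03 to 2.48 on the shrunken log2 scale in the other 5 groups.

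Between doses, Cxcr5 at 4 h was 1.85-fold higher with 80 µg (95% interval 1.36 to 2.52), a shrunken log2 difference of 0.88 ± 0.22 (adjusted p = 0.00143) that did not reach the fold threshold, and the mice did not overlap. At 12 h the fold was 0.968 (0.711 to 1.32) and at 24 h 1.07 (0.775 to 1.47), with adjusted p = 0.958 and 0.902. B cells also express Cxcr5. The summed level of 10 B cell marker genes was 429 to 522 CPM in control mice, 44.0 to 133 CPM over the 4 groups at 4 and 12 h and 311 to 425 CPM at 24 h. Ighm made up most of it in control mice and at 24 h, and Cd79a had 0 to 9 counts in all groups. The part of B cells in the Cxcr5 values was not tested. The last 110 bases of Cxcr5 overlap an exon of Bcl9l on the opposite strand, and Bcl9l had 641 ± 18.3 normalised counts in control mice and 99.9 to 429 as group means after peptide. Whether counting near that overlap affected Cxcr5 was not tested.

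Of 13 other surface and secreted molecules of follicular helper cells, 12 passed the filter. With 80 µg, 4 were called higher at 4 h (Icos, Cd40lg, Tnfrsf4 and Angptl2), 2 at 12 h and 0 at 24 h (5.85%, 2.79% and 1.56% of all genes in either direction), and Izumo1r was the 1 called lower, at 12 h. The median log2 difference was 0.69, 0.67 and 0.08. Icos, a costimulatory receptor, had 1263 ± 164 against 259 ± 73.7 normalised counts at 4 h (log2 2.27, adjusted p = 5.99e-32). Cd40lg, the ligand through which helper cells license B cells, had 1713 ± 144 against 680 ± 31.3 (1.32, adjusted p = 4.41e-12). Angptl2 had 34.6 ± 3.45 against 7.02 ± 3.81 at 12 h (2.07, adjusted p = 0.0149).

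Sh2d1a, on the X chromosome, was called in no comparison. With 80 µg at 4 h the mice had 72.9, 51.3 and 48.0 normalised counts, against 77.7, 134 and 72.3 with 0.8 µg and 95.9, 100.4 and 111 in control mice. The doses overlapped by 1 mouse, and all mice with 80 µg were below the control mice. The log2 difference was -0.71 ± 0.26 SE between doses (adjusted p = 0.0490) and -0.83 ± 0.26 against control (adjusted p = 0.00272), both short of the fold threshold. The difference from control went past it without 80 µg replicate 1 (-1.002). With 1 library left out, the dose difference ranged from -0.89 to -0.40 and was smallest without 0.8 µg replicate 2 (adjusted p = 0.458). Its adjusted p was 0.0390 to 0.105 in the other settings. At 12 and 24 h the folds between doses were 0.800 (95% interval 0.578 to 1.11, adjusted p = 0.568) and 1.25 (0.905 to 1.74, adjusted p = 0.549). The highest means were 152 ± 16.5 with 80 µg at 24 h and 152 ± 36.8 with 0.8 µg at 12 h. Both groups lay above the control range, under the fold threshold (log2 0.57 in each, adjusted p = 0.0465 and 0.0366 in turn). With 1 library left out, these adjusted p went up to 0.158 and 0.270. The last 1465 bases of Sh2d1a overlap an exon of Tenm1 on the opposite strand, and Tenm1 was at 0 counts in every library. Whether counting there, with the strand setting not stated, affected Sh2d1a was not tested.

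Of 8 SLAM receptor and SAP partner genes, 7 passed the filter and 6 were tested. Slamf7 was called higher with 80 µg at 4 h (961 ± 175 against 321 ± 66.8 normalised counts, log2 1.57, adjusted p = 1.05e-15). No other gene of this list was called between doses at any time (5.85%, 2.79% and 1.56% of all genes were), and the list's median log2 difference was 0.50, 0.16 and -0.08. Slamf1, Cd84, Slamf6, Ly9 and Fyn were among those not called between doses.

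Tox was lower with 80 µg than with 0.8 µg at 12 and 24 h. At 12 h the mice had 113, 104 and 124 normalised counts with 80 µg and 338, 283 and 242 with 0.8 µg. At 24 h there were 129, 162 and 149 with 80 µg and 339, 338 and 494 with 0.8 µg. The doses did not overlap at either time. The log2 difference was -1.33 ± 0.18 SE at 12 h (adjusted p = 1.87e-11) and -1.40 ± 0.17 at 24 h (adjusted p = 6.16e-13). At 4 h the doses overlapped, with 180 ± 15.9 and 212 ± 36.3 normalised counts and a fold of 0.851 (95% interval 0.667 to 1.09, adjusted p = 0.508). Some markers of other T cells were lower with 80 µg at these times too, and others were not. Ikzf2, a marker of regulatory T cells, had 31.1 to 42.8 CPM with 80 µg against 109 to 132 with 0.8 µg at 12 h, and 133 to 160 against 302 to 541 at 24 h. Foxp3 had 5.05 to 8.68 against 0.957 to 6.33 CPM at 12 h. At 24 h Foxp3 had 20.2 to 25.5 against 12.6 to 55.3, and the doses overlapped at both times. The regulatory T cell markers Il2ra and Ctla4, which activated T cells share in part, were higher with 80 µg at 12 h. Il2ra had 553 to 609 against 200 to 343 CPM, and Ctla4 had 53.7 to 78.4 against 4.47 to 22.04. At 24 h the doses overlapped in both genes. Il2ra then had 77.5 to 81.2 against 58.3 to 87.8 CPM, and Ctla4 had 43.7 to 59.9 against 22.8 to 46.7. The summed CD8+ T cell markers Cd8a and Cd8b1 had 13.1 to 22.7 against 43.6 to 51.3 CPM at 12 h and 20.1 to 28.8 against 34.3 to 40.9 at 24 h. The part of such cells in the Tox values was not tested.

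The control mice had 392, 334 and 353 normalised counts of Tox. After 0.8 µg the mean was below control at 4 h (log2 -0.76, adjusted p = 3.72e-05, under the fold threshold) and was not called at 12 h (0.801-fold, 95% interval 0.636 to 1.01) or 24 h (1.08-fold, 0.863 to 1.36). After 80 µg the log2 difference from control was -0.99 at 4 h (adjusted p = 4.55e-08), just under the threshold. It went past it without control replicate 2, control replicate 3, 80 µg replicate 1 or 80 µg replicate 3 (-1.003 to -1.04). Tox fell at 12 h by 1.65 (adjusted p = 1.69e-19) and at 24 h by 1.28 (adjusted p = 2.81e-12) on the log2 scale. Tox was thus at 0.316-fold and 0.409-fold of control after the high dose. Tox exons share up to 260 bases with Gm11802 on the opposite strand, which was at 0 counts in every library.

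Tox2 had a different course and was highest at 4 h. With 80 µg at 4 h the mice had 240, 251 and 258 normalised counts, with 0.8 µg 48.5, 136 and 77.7, and without treatment 13.4, 3.04 and 4.28. None of these groups overlapped. Tox2 rose over control with 80 µg (log2 4.84 ± 0.48 SE, adjusted p = 1.80e-21) and with 0.8 µg (3.37 ± 0.49, adjusted p = 6.44e-11), and was higher with 80 µg than with 0.8 µg (1.47 ± 0.40, adjusted p = 0.00403). The values over control rest on 13, 3 and 3 control counts, and ranged from 4.45 to 5.50 with 80 µg and from 2.94 to 4.02 with 0.8 µg when 1 library was left out, highest without control replicate 1. The call between doses was lost when genes needed at least 10 reads in 3 libraries (adjusted p = 0.0522) and without 0.8 µg replicate 1 (adjusted p = 0.0531), with log2 differences of 1.43 and 1.23.

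At 12 h Tox2 overlapped the control values at both doses, with 14.4 ± 6.10 normalised counts after 80 µg and 7.01 ± 6.47 after 0.8 µg. The fold between these doses was 2.00 (95% interval 0.954 to 4.18, adjusted p = 0.350). Over control, 80 µg at 12 h was not called, but was without control replicate 1 (log2 1.56, adjusted p = 0.0167) or 80 µg replicate 3 (1.21, adjusted p = 0.0482), with 0.52 to 1.56 over the libraries left out. At 24 h there were 27.4 ± 13.7 and 27.6 ± 7.46, with a fold between doses of 0.981 (0.527 to 1.83, adjusted p = 0.987). Both were called higher than control (log2 1.76 and 1.79, adjusted p = 0.00162 and 0.00160), although the range after 80 µg overlapped the control range. With 1 library left out these ranged from 1.37 to 2.40 and from 1.39 to 2.43, highest without control replicate 1 and lowest without control replicate 2. Of the relatives Tox3 and Tox4, Tox4 passed the filter and was not called between doses at any time.

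**Figure D5:**
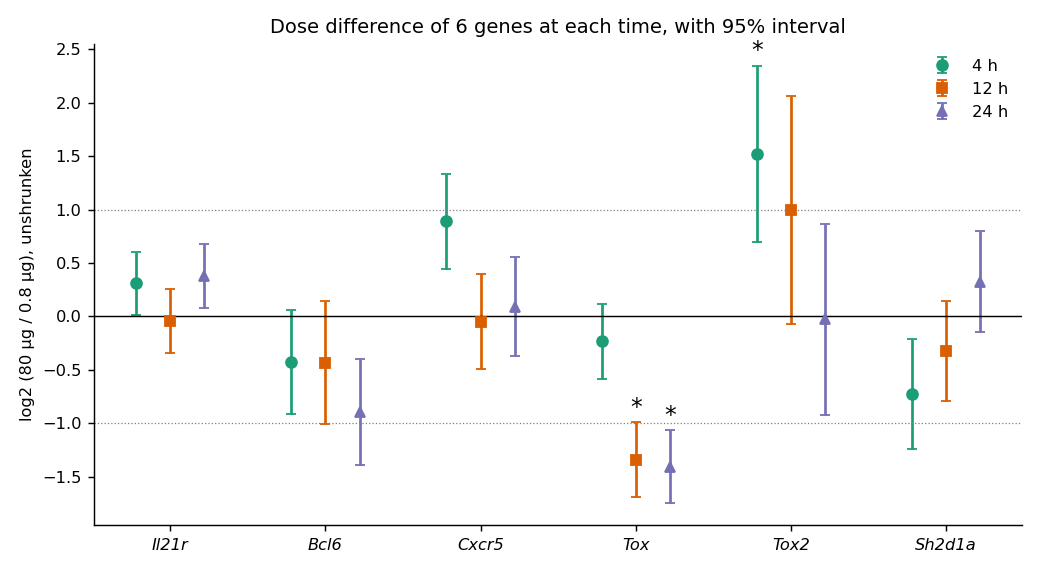
Unshrunken log2 ratio of 80 µg to 0.8 µg for the 6 tested genes at 4, 12 and 24 h, with 95% intervals over 3 mice per group. Asterisks mark genes called with the shrunken value, which are Tox2 at 4 h and Tox at 12 and 24 h, and dotted lines mark a log2 ratio of 1 in either direction.

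Whether the dose difference itself changed with time was tested over the 18 immunised libraries with a likelihood ratio test (DESeq2, Benjamini-Hochberg adjusted). Of the 6 tested genes, 2 passed, Tox (adjusted p = 1.19e-04) and Cxcr5 (adjusted p = 0.0426), and 10.3% of all genes tested passed. Tox was close to equal between doses at 4 h and lower with 80 µg later, whereas the dose difference of Cxcr5 had an adjusted p under 0.05 at 4 h and not later. The Cxcr5 result did not pass in 14 of 18 fits that each left out 1 library, with adjusted p of 0.0170 to 0.200 over the 18, or with a replicate block (adjusted p = 0.0711). The other 4 genes had adjusted p = 0.103 (Sh2d1a), 0.159 (Tox2), 0.318 (Il21r) and 0.641 (Bcl6), and Tox2 passed without 0.8 µg replicate 2 at 4 h (adjusted p = 0.0241). Of the gene lists above, 6 of 10 genes of IL-21 receptor signalling and 6 of 9 transcription factor genes known to act on Il21 passed. So did 9 of 11 tested follicular helper regulators, 10 of 13 genes that oppose the programme and 4 of 12 surface and secreted molecules. In the other lists 3 of 6 SLAM and SAP partner genes, 1 of 3 Bcl6 corepressors and relatives and 0 of 1 Tox relatives passed. Some genes, among them Maf and Prdm1, are in more than 1 list, so these counts are not separate from each other.

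Over the 21 libraries and with the 8 genes themselves left out of the ranking, the gene most like Il21 in the deposited log2 values was Ptpn1, a protein tyrosine phosphatase gene (Pearson r = 0.944), followed by Mt1 (0.940), Gm14005 (0.895), Malt1 (0.885) and Rora (0.867), out of 8753 genes whose mean reached 20 normalised counts. Ptpn1 (0.931), Rora (0.924) and Mt1 (0.922) were also the closest to Gm12534 in that ranking. The closest to Il21r were Ubash3b (0.919), Gm43006 and Cables2, and to Bcl6 they were Erbin (0.897), Bcl10 and Dusp1. For Cxcr5 they included Mthfd2 (0.944) and Nampt, for Tox they were Tespa1 (0.810), Sfmbt2 and Ttc28, for Tox2 Ddx11 (0.951), Jak2 and Rela, and for Sh2d1a Gmppa (0.873), Sept9 and Bet1. Among the members, the highest r was that of Il21 with Gm12534 (0.936). Both were chosen by their counts and were near the floor in all control and 0.8 µg libraries, so a high r follows in part from the choice. The lowest r were those of Il21r with Sh2d1a (-0.773) and of Il21 with Tox (-0.767). Il21 had r of 0.364 with Tox2, 0.500 with Cxcr5, 0.311 with Il21r, -0.291 with Sh2d1a and -0.328 with Bcl6. The libraries come from 7 groups of 3 and share dose, time and gate, so these values describe likeness and carry no test.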

How the data were processed

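Reads of the 21 QuantSeq forward libraries were trimmed with Bbduk, aligned with STAR 2.5.2a to GRCm38 (mm10) and counted with HTSeq-count by the authors, who deposited the raw counts and regularised log2 values. Strand setting, annotation release and any molecular identifiers are not given in the sources used here. Genes with at least 10 reads were fitted with DESeq2 1.42.0 in R 4.3.3, with 1 coefficient per group over all 21 libraries, normal-prior shrinkage and Benjamini-Hochberg adjustment, and were called at adjusted p below 0.05 and an absolute log2 fold change above 1, as in the study. The interaction of dose and time was a likelihood ratio test. The 95% intervals are unshrunken estimates ± 1.96 SE. DESeq2 log2 differences in the text are shrunken, and folds of tested genes are unshrunken. Counts of 3 per library served as the floor. The fits were tested on simulated data. Alternatives were edgeR 4.0.16, TMM library sizes, other filters and thresholds, pairwise fits, a replicate block, sex as a covariate and leaving out each library. Replicates are separate mice. Positions come from GENCODE vM21 and sequences from its transcripts and RefSeq promoters, which held Il21, Il21r, Bcl6 and Tox2 of the 8 genes.

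The members and gene lists were chosen with earlier results of these data known. Named were the 8 genes, all genes within 500 kb of Il21 past the filter, up to 3 called genes per list with the largest dose difference, and the 5 (Il21) or 3 genes with the highest r with a member. Genes beyond this rule are named to account for a count. Some genes of the lists and of the rule are not reported here.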

Additional observations from a re-analysis of the deposited data

Results flagged for a closer look

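The dose difference changed with time in 2 of the 6 tested genes, by the likelihood ratio test of the interaction of dose and time, which 10.3% of all genes tested passed. In the order 4, 12 and 24 h, the shrunken log2 dose difference of Tox was -0.23, -1.33 and -1.40, a largest minus smallest of 1.16. For Cxcr5 it was 0.88, -0.05 and 0.09, a largest minus smallest of 0.93. Tox passed the test in all 18 fits that left out 1 library, and Cxcr5 passed in 4 of 18 and not with a replicate block (adjusted p = 0.0711). Groups of 3 mice are too small for the check for single outlying libraries.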

How the results depend on the processing

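With no fold threshold the genes called between doses rose from 635 to 1301 at 4 h, from 311 to 699 at 12 h and from 151 to 573 at 24 h, and those called over control at 24 h from 2185 to 4551 (0.8 µg) and from 2615 to 5048 (80 µg). With only the 6 samples compared, 145 genes were called between doses at 12 h and 83 at 24 h. The other settings kept all 10 counts within 1.5 times. Leaving out 1 library gave 529 to 642, 227 to 330 and 122 to 157 genes between doses, and 809 to 1287 for the interaction (1035).

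Samples of the same replicate number at the 2 doses had low correlations of deviations (-0.107 to 0.205). The same number was the best match only for replicate 3 at 4 h (0.205) and 12 h (0.198). At 4 and 12 h, Xist was high in replicates 1 and 2 and low in replicate 3 at both doses. Whether mice were paired by number is not stated in the sources used here. With a replicate block 611, 288 and 138 genes were called between doses at 4, 12 and 24 h and 902 for the interaction, and Cxcr5 no longer passed the interaction (adjusted p = 0.0711). It did not pass with sex read from Xist as a covariate either (adjusted p = 0.0574), an alternative chosen after seeing the data, as were scaling by total counts and sums over the group.

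Some uncalled log2 fold changes near 0 changed sign. Il21r over control at 12 h with 0.8 µg became 0.025 in edgeR and 0.0051 with only the 6 samples. When libraries were left out, the dose difference ranged from -0.17 to 0.17 for Cxcr5 at 12 h, -0.082 to 0.19 for Cxcr5 at 24 h, -0.21 to 0.060 for Il21r at 12 h and -0.37 to 0.29 for Tox2 at 24 h. Against control it ranged, with 0.8 µg, from -0.43 to 0.047 (Sh2d1a, 4 h), -0.20 to 0.053 (Il21r, 12 h), -0.41 to 0.66 (Tox2, 12 h) and -0.088 to 0.21 (Tox, 24 h), and, with 80 µg, from -0.28 to 0.0050 (Il21r, 12 h), -0.16 to 0.094 (Il21r, 24 h) and -0.25 to 0.10 (Bcl6, 24 h). The cause of these changes was not tested. Of 535 values of single genes in other settings 514 kept direction and call, as did 460 of 510 with a library left out. At these depths a count of 0 allows up to 3 counts in a library.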
